A study of Arabidopsis thaliana with 14 samples.

Results

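PDF1.2b (AT2G26020), PDF1.4 (AT1G19610) and PDF2.1 (AT2G02120) are 3 plant defensin genes of Arabidopsis thaliana, read by 3 of the 22810 probe sets of a 1-colour array and 3 of the 13350 genes with a probe set of their own in its probe table. They were chosen by name among the plant defensins because their intensities differed between seedlings with altered activity of YODA (YDA) and the control seedlings of the same series. The YDA protein sits at the head of a MAP kinase cascade that restrains entry into the stomatal lineage. The 14 samples of seedlings at 7 dpg fell into 4 groups. NdelYDA was an N-terminal deletion (NB89) form of YDA, the gain-of-function group by the series title, with 4 arrays, and the labels of 2 of the 4 give the Ler ecotype and state that stomata were absent. Its control was the Ler ecotype (3 arrays). The yda group was the loss-of-function group by the series title, with 4 arrays and no ecotype in its labels. Its control, paired with it from the design and not from a label, was line CS9159 in the C24 ecotype (3 arrays). No treatment is given for any group, the promoter of the deletion form is not given in the sources used here, and the number of seedlings pooled per sample is not given either. The yda samples and 3 of the NdelYDA samples are described as biological replicates, and the other samples carry only a number, so part of the spread behind the p-values may be technical.

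Plant defensins are small, secreted, cysteine-rich peptides, and many of them act against fungi. In Arabidopsis the PDF1 group includes PDF1.2, whose transcript is the textbook marker of the defence branch driven jointly by jasmonate and ethylene, through the transcription factors EIN3, ERF1 and ORA59. The salicylate branch is marked by other genes and often counteracts it. PDF2 genes form a separate group of the same family, known less for induction by pathogens.

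Of 15 plant defensin loci listed, 12 had a probe set with 1 gene in the probe table used, namely the 3 described here and 9 others. PDF1.4 (probe set 261135_at) and PDF2.1 (266141_at) were read by probe sets whose names mark them as designed for 1 gene. The probe set of PDF1.2b (257365_x_at) carries the ending that marks probes shared with other sequences, which 126 probe sets of the array carry. Its intensity may therefore hold signal from close relatives such as PDF1.2, PDF1.2c and PDF1.3. PDF1.2c, PDF1.3 and PDF1.5 had no probe set of their own in that table and are not analysed here. PDF1.2 had its own probe set (249052_at), of the type designed for 1 gene, and its values are given beside those of PDF1.2b. In the gene table used for names, PDF1.2b and PDF1.3 were direct neighbours, as were PDF1.2 and PDF1.2c, and PDF2.1 and PDF2.3. No probe or gene sequences were used here, so the share of shared probes cannot be given.

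Transcript signal from PDF1.2b, a secreted antifungal peptide gene, was high in both mutants and low in both controls. Its intensity, in arbitrary units on a linear scale with each array scaled to the same trimmed mean of 500, was 1892, 1622, 1544 and 1551 in the NdelYDA samples. In the Ler control it was 83.0, 45.4 and 79.2. All NdelYDA arrays were far above all Ler arrays, and the Ler values lay under each array's 30th percentile (80.2 to 85.5 in Ler), a level taken here as low signal. The group means were 1652 ± 164 (SD, n = 4) in NdelYDA and 69.2 ± 20.7 (n = 3) in Ler.

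In yda seedlings PDF1.2b was at 1359, 1045, 2102 and 1161, and in the C24 control at 46.5, 67.4 and 68.1. The groups again did not overlap, and the C24 values also lay under the 30th percentile of their arrays. The yda arrays were the more uneven of the mutants, with replicate 3 highest, and a coefficient of variation of 33.5% in yda and 9.91% in NdelYDA. The means were 1417 ± 475 (n = 4) in yda and 60.7 ± 12.3 (n = 3) in C24. Arrays of the mutants overlapped each other, and so did those of the controls. In its own array, the probe set was brighter than 90.4 to 92.6% of all probe sets in NdelYDA, against 19.6 to 29.9% in Ler, and than 85.4 to 93.1% in yda, against 21.9 to 26.6% in C24.

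PDF1.4, another gene of the PDF1 group, was likewise high in both mutants and low in both controls, with less spread in the mutants. It was at 1166, 1270, 1272 and 1329 in NdelYDA and at 69.1, 74.1 and 73.0 in Ler. It was at 1093, 1080.0, 1107 and 1050.0 in yda and at 57.8, 110.3 and 95.6 in C24. No mutant array came near a control array, and the coefficient of variation was 5.39% in NdelYDA and 2.23% in yda, against 3.65% in Ler and 30.8% in C24. The means were 1259 ± 67.9 (SD, n = 4) in NdelYDA and 72.1 ± 2.63 (n = 3) in Ler. Those of the other pair were 1082 ± 24.1 (n = 4) for yda and 87.9 ± 27.1 (n = 3) for C24. The Ler arrays and C24 replicate 1 were under the 30th percentile of their arrays. Every NdelYDA array was above every yda array for this probe set, with the lowest NdelYDA value at 1166 and the highest yda value at 1107, while the Ler and C24 arrays overlapped. The mutants have controls of different ecotypes, and no share of all probe sets is given for mutant against mutant. Nothing is therefore read from that gap.

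PDF2.1 behaved differently: it was high in NdelYDA and low in yda. Its intensity was 1133, 1166, 1105 and 934.5 in NdelYDA and 186.0, 193.8 and 207.8 in Ler. It was 94.1, 104.6, 93.0 and 59.4 in yda and 678, 287 and 189 in C24. All NdelYDA arrays were above all Ler arrays, all yda arrays were below all C24 arrays, and the order of means was NdelYDA, C24, Ler, yda, with the neighbours C24 and Ler overlapping. The means were 1085 ± 103 (SD, n = 4) in NdelYDA and 196 ± 11.1 (n = 3) in Ler, and 87.8 ± 19.6 (n = 4) for yda and 385 ± 259 (n = 3) for C24. The C24 mean rests largely on replicate 1, and the spread there, a coefficient of variation of 67.3%, was the widest of the 4 groups, against 9.51% in NdelYDA, 5.64% in Ler and 22.4% in yda. In yda, replicate 4 was under the 30th percentile of its array and the other 3 just above it.

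**Figure D1:**
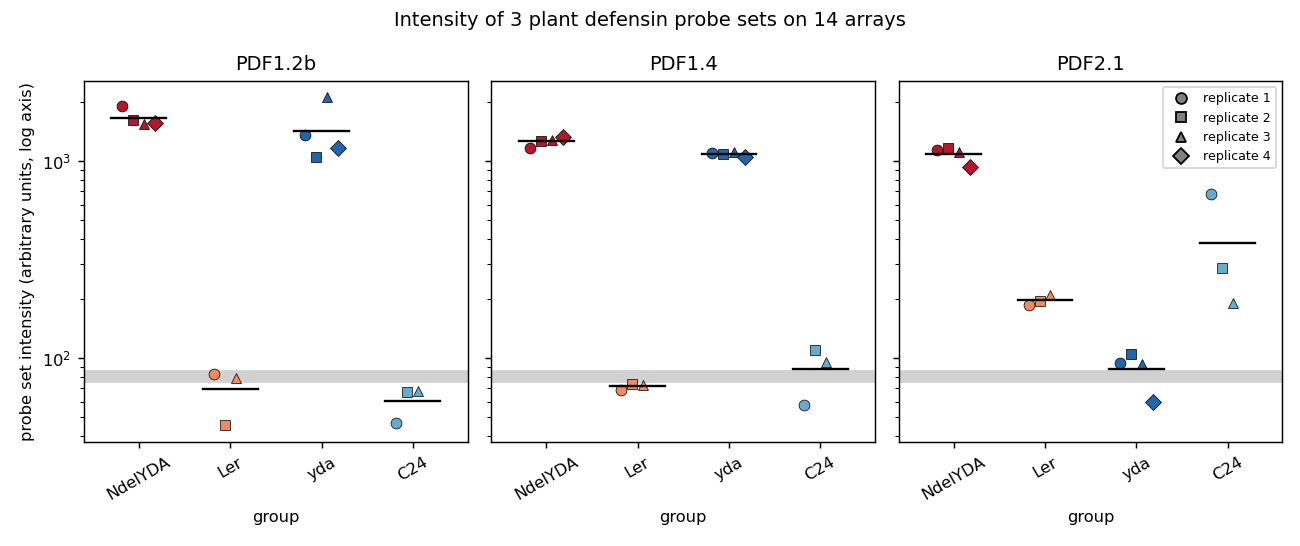
Intensity (vertical axis, arbitrary units, log scale) of the PDF1.2b, PDF1.4 and PDF2.1 probe sets in the 4 groups (horizontal axis). Points are arrays, with the symbol giving the replicate number, black lines are group means and the grey band is the range of the arrays' 30th percentiles (75.1 to 85.8). PDF1.2b and PDF1.4 are at 1045 or more in every mutant array and at 110.3 or less in every control array, while PDF2.1 lies at 934.5 or more in NdelYDA and at 104.6 or less in yda.

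The comparisons of mutants with their controls chose these 3 genes, so their changes are given as a description and without a p-value. Changes are differences of log2(intensity + 16), where the added 16 shrinks the change of dim probe sets, and come from 1 linear model over all 14 arrays. Each SE rests on 1 spread per probe set, shared by the 4 groups. For PDF2.1 the C24 arrays were by far the most uneven, so its SE does not describe the spread of the groups compared. In NdelYDA against Ler the log2 change was 4.32 for PDF1.2b (SE 0.21, a fold of 19.9), 3.85 for PDF1.4 (SE 0.13, a fold of 14.5) and 2.37 for PDF2.1 (SE 0.28, a fold of 5.18). In yda against C24 it was 4.18 for PDF1.2b (SE 0.21, a fold of 18.2), 3.44 for PDF1.4 (SE 0.13, a fold of 10.8) and -1.78 for PDF2.1 (SE 0.28, a fold of 0.291). Since PDF1.2b and PDF1.4 were at or near low signal in the controls, and PDF2.1 in yda, these folds depend on the pseudocount. With pseudocounts of 64 and 1, PDF1.2b changed by 3.70 and 4.60 in NdelYDA and by 3.53 and 4.49 in yda. The yda change of PDF2.1 was then -1.42 and -1.94. By the call rule used for the genes tested further on (limma, Benjamini-Hochberg adjusted p under 0.05), 32.0% of all 17210 probe sets were called in NdelYDA and 43.4% in yda. In both comparisons the mutant and control arrays of each of the 3 genes did not overlap. That was also so for 21.1% of all tested probe sets in the higher and 22.9% in the lower direction in NdelYDA, and for 18.4% and 23.2% in yda. These are shares of each comparison alone. PDF1.2b passed the filter on low values through the mutant arrays alone and PDF1.4 mostly so, and such a probe set had to differ between groups to be tested.

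The NdelYDA change less the yda change was 0.13 (SE 0.29) for PDF1.2b and 0.42 (SE 0.19) for PDF1.4. For PDF2.1 it was 4.15 (SE 0.39), where 33.4% of the 17210 probe sets were called for this difference and 17.6% called higher. With pseudocounts of 64 and 1 the PDF2.1 difference was 3.56 and 4.4. Because NdelYDA and yda were set against different ecotypes, the choice of control was checked for each gene. Against C24 in place of Ler, the NdelYDA change of PDF2.1 was 1.64, and against Ler in place of C24, its yda change was -1.05, so both kept their direction and were smaller. Without C24 replicate 1 the yda change of PDF2.1 was -1.29 and without C24 replicate 3 it was -2.17. The PDF1.2b and PDF1.4 changes stayed at 2.93 or more in every alternative setting tried.

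The comparison of the control ecotypes did not choose the genes and was tested. None of the 3 was called in Ler against C24 (limma, Benjamini-Hochberg adjusted p under 0.05), where 37.2% of all 17210 probe sets were, 21.0% with Ler higher and 16.2% with Ler lower. PDF1.2b was low signal on all 6 control arrays and PDF1.4 on 4 of them, and both were tested mainly through mutant arrays, so nothing is read from that count. At an unadjusted p under 0.05, 1 of the 3 passed, PDF2.1. The share of all probe sets at that level is not given, so nothing is read from this count either. The log2 change was 0.13 for PDF1.2b (SE 0.22, limma adjusted p = 0.676) and -0.20 for PDF1.4 (SE 0.14, adjusted p = 0.281). For PDF2.1 it was -0.73 (SE 0.30, adjusted p = 0.066), with Ler lower. The arrays of the ecotypes overlapped for each of the 3 genes, and were apart in 26.6% of all tested probe sets with Ler higher and in 19.5% with Ler lower. These results depended on single C24 arrays: without replicate 1, PDF1.4 was called lower in Ler (-0.43, limma adjusted p = 0.00102) and PDF2.1 changed by only -0.24, and without replicate 3, PDF2.1 was called lower in Ler (-1.11, limma adjusted p = 0.0037). With quantile normalization PDF2.1 was also called (-0.79, limma adjusted p = 0.0467).

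C24 replicate 1 stood apart in other ways. The GAPDH 3′ over 5′ ratio, used as a measure of RNA breakdown, was 1.46 on it, against 1.12 and 1.02 in the other C24 arrays. In the other groups it ran from 0.992 to 1.21 in NdelYDA, from 1.05 to 1.11 in Ler and from 0.789 to 0.945 in yda. C24 replicate 1 had the lowest C24 intensity for PDF1.2b and PDF1.4 and the highest for PDF2.1. The part of RNA quality in these values was not tested.

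The defensin relatives that the array could read were compared next. Of 9 other plant defensins with a probe set, 5 passed the filter on low values. PDF2.4, PDF2.6, LCR80 and LCR59 stayed below the 30th percentile of each of the 14 arrays, at intensities of 1.4 to 48.0, and were not tested. In NdelYDA against Ler, 2 of the 5 rose (PDF1.2 and PDF1.1), 1 fell (PDF2.3) and 2 were not called, beside 15.4% of all tested probe sets called higher and 16.6% called lower. The 2 that rose were tested only because they were high in a mutant, so this count is no support for a family pattern. In yda against C24, 1 of the 5 rose (PDF1.2), 3 fell (PDF2.3, PDF2.5 and PDF2.2) and 1 was not called, beside 19.1% called higher and 24.4% called lower over all. The median log2 change of the 5 was 0.03 in NdelYDA and -0.15 in yda, against -0.01 and -0.03 for all tested probe sets.

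PDF1.2, the marker gene of jasmonate and ethylene defence, moved in the direction of PDF1.2b in both mutants, with an uneven signal in yda. It was at 394.9, 328, 322 and 315 in NdelYDA and at 21.7, 19.3 and 51.6 in Ler. It was at 336, 86.8, 225 and 111.0 in yda and at 17.5, 16 and 31.3 in C24. Mutant and control arrays did not overlap in either comparison, all control values were low signal, and yda replicates 2 and 4 were only a little above the 30th percentile of their arrays. PDF1.2 passed the filter on low values through the mutant arrays alone, so its p-values are not independent of that filter, and those with no filter are given too. The log2 change was 2.98 in NdelYDA (SE 0.34, limma adjusted p = 3.95e-06) and 2.3 in yda (SE 0.34, limma adjusted p = 4.59e-05), and the difference between these was not called (0.68, limma adjusted p = 0.303). With no filter, the adjusted p by limma was 1.85e-05 in NdelYDA and 0.000152 in yda. In yda, the highest array for PDF1.2b was replicate 3 and the highest for PDF1.2 was replicate 1, while replicate 2 was lowest for both.

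PDF1.1, also of the PDF1 group, was high in NdelYDA alone and entered the test through those arrays. It was at 374, 338, 265 and 294 in NdelYDA and at 38.2, 54.1 and 60.5 in Ler. It was at 77.4, 60.8, 46.3 and 54.4 in yda and at 93.4, 49.8 and 52.4 in C24. The NdelYDA arrays stood clear of all others, and the yda and C24 arrays overlapped. The log2 change was 2.32 in NdelYDA (SE 0.20, limma adjusted p = 1.89e-07) and -0.08 in yda (SE 0.20, limma adjusted p = 0.794), and the difference of these effects was 2.40 (SE 0.28, limma adjusted p = 8.85e-06). With no filter on low values, the adjusted p by limma was 1.02e-06 in NdelYDA, 0.833 in yda and 3.08e-05 for the difference.

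PDF2.3, the direct neighbour of PDF2.1 in the gene table, fell in both mutants. It was at 2617, 2685, 2592 and 2530 in NdelYDA and at 4617, 4835 and 5467 in Ler. It was at 2987, 2819, 3080 and 2458 in yda and at 4660, 5383 and 5119 in C24. Neither comparison had overlapping arrays, and the controls were alike. The log2 change was -0.92 in NdelYDA (SE 0.08, limma adjusted p = 1.66e-07) and -0.83 in yda (SE 0.08, limma adjusted p = 4.49e-07), with a difference of -0.09 (SE 0.11, limma adjusted p = 0.571). PDF2.1 and PDF2.3 thus had the same direction in yda and opposite directions in NdelYDA.

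PDF2.2 and PDF2.5 were not called in NdelYDA and had small changes in yda. PDF2.2 averaged 6618 ± 155 (SD, n = 4) in NdelYDA and 6462 ± 145 (n = 3) in Ler, and was not called (log2 change 0.03, limma adjusted p = 0.688). In yda it averaged 6984 ± 383 (n = 4) and in C24 7745 ± 484 (n = 3), a fall of 0.15 (limma adjusted p = 0.0354) with overlapping arrays. That call was lost in 10 of 23 alternatives, including scaling to a common median (-0.08, limma adjusted p = 0.314), only the groups compared (-0.15, limma adjusted p = 0.123) and Ler in place of C24 (0.11, limma adjusted p = 0.0905). It was also lost without yda replicate 3 (-0.11), yda replicate 4 (-0.14), C24 replicate 2 (-0.15) or C24 replicate 3 (-0.10), with limma adjusted p of 0.101, 0.0575, 0.0671 and 0.178 in that order. PDF2.5 averaged 190 ± 30.5 (n = 4) in NdelYDA and 188 ± 41.5 (n = 3) in Ler, and was not called (log2 change 0.02, limma adjusted p = 0.941). It averaged 109 ± 4.21 (n = 4) in yda and 158 ± 35.4 (n = 3) in C24, a log2 change of -0.46 (limma adjusted p = 0.026), with arrays apart. It was not called without C24 replicate 2 (-0.30, limma adjusted p = 0.158) or without yda replicate 3 (-0.45, limma adjusted p = 0.0522).

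**Figure D2:**
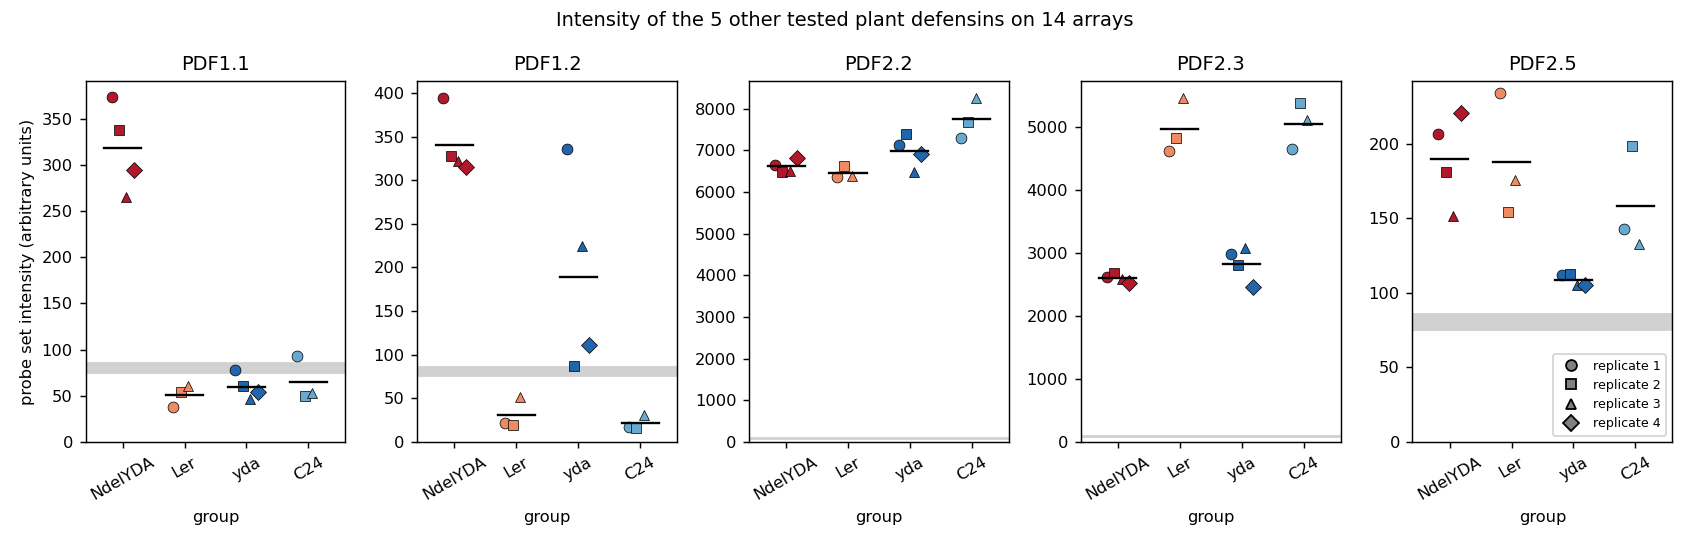
Intensity (vertical axes, arbitrary units, linear, starting at 0) of the 5 other tested plant defensins in the 4 groups (horizontal axes). Points are arrays, with the symbol giving the replicate number, black lines are group means and the grey band is the range of the arrays' 30th percentiles. PDF1.2 is higher in both mutants (86.8 to 394.9), than in the controls (16 to 51.6), PDF1.1 is high in NdelYDA, and PDF2.3 is lower in both mutants than in the controls.

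**Figure D3:**
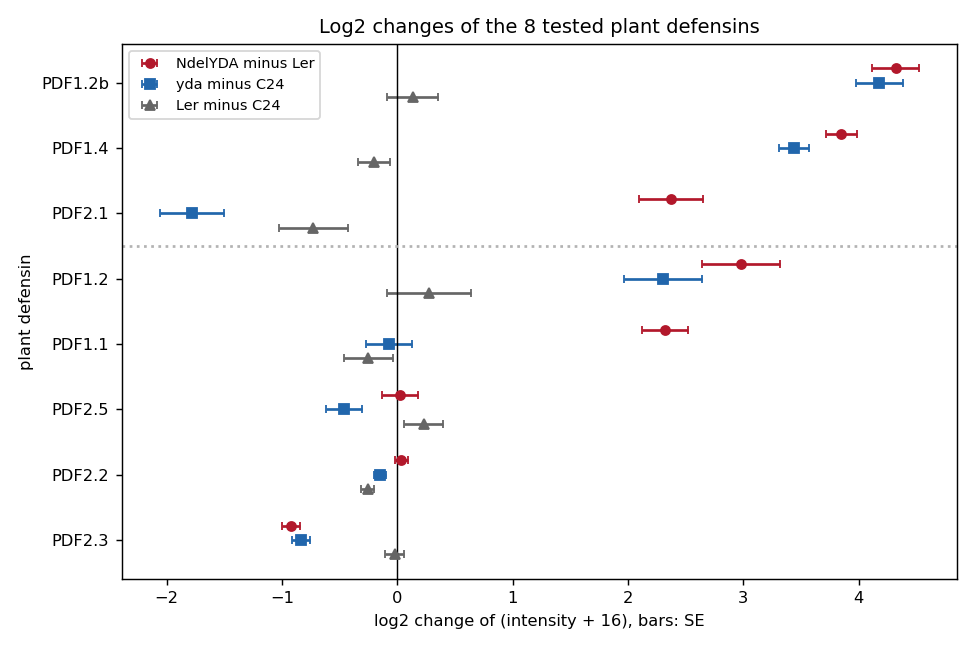
Log2 change of (intensity + 16) on the horizontal axis for the 8 tested plant defensins, with bars of 1 SE from the model over 14 arrays. Red circles are NdelYDA minus Ler, blue squares yda minus C24 and grey triangles Ler minus C24, and the dotted line separates the 3 genes described here from the others. PDF1.2b, PDF1.4 and PDF1.2 lie to the right of 2 in both mutants, PDF2.1 lies on opposite sides of 0 and PDF2.3 lies left of 0 in both.

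The probe sets with the most similar pattern over the 14 arrays were looked up among 9525 tested probe sets of 1 gene, by the Pearson correlation of log2(intensity + 16). These correlations are descriptions, since all points share the 4 groups. For PDF1.2b the first 3 were PDF1.4 (r = 0.989), AT3G22060 (r = 0.987), a gene of a cysteine-rich secreted protein family related to receptor kinases, and AT1G72060 (r = 0.982), a gene for a small protease inhibitor. For PDF1.4 the first 3 were AT1G72060 (r = 0.994), PDF1.2b (r = 0.989) and AT3G22060 (r = 0.988). PDF1.2 correlated with PDF1.2b at 0.941 and with PDF1.4 at 0.919. By rank order over the same arrays none of the 3 nearest probe sets was the same for any of the 3 defensins.

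AT3G22060 was at 1332 to 1589 in NdelYDA and at 251 to 346 in Ler, and at 1197 to 1302 in yda and 215 to 263 in C24. AT1G72060 was at 1075 to 1194 in NdelYDA and at 138 to 145 in Ler, and at 1173 to 1257 in yda and 128 to 232 in C24. Both were thus high in all 8 mutant arrays and low in all 6 control arrays, and both were chosen for likeness to PDF1.2b and PDF1.4. Unlike those of PDF1.2b, their control values were above the 30th percentile of every array.

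For PDF2.1 the first 3 were AT2G21820 (r = 0.990), AT2G15010 (r = 0.986), of the thionin family of small cysteine-rich peptides, and M17 (r = 0.979), a late embryogenesis abundant gene. PDF1.1 followed PDF2.1 less closely (r = 0.866), and PDF1.2b (r = 0.139) and PDF1.4 (r = 0.137) did not. M17 was at 1524, 1440, 1448 and 1600 in NdelYDA and at 348, 379 and 446 in Ler. It was at 156, 122, 177 and 109 in yda and at 1431, 639 and 345 in C24. M17, AT2G21820 and AT2G15010 each had C24 replicate 1 highest and replicate 3 lowest of the C24 arrays, as PDF2.1 had. AT2G21820 was at 354, 151 and 94.1 in the C24 arrays 1 to 3, and AT2G15010 at 555, 223 and 150. As for PDF2.1, no yda array of these 3 probe sets reached a C24 array, and no Ler array reached an NdelYDA array. These likenesses were largely given by choosing the 3 probe sets for their correlation over the same arrays, so nothing more is read from them. Over all tested probe sets the arrays were apart in 21.1% with NdelYDA higher and in 23.2% with yda lower, and the share with both at once is not given. None of the 5 seed and embryo storage genes set aside as markers had a probe set with 1 gene, so the seed part of the samples was not measured by that list.

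**Figure D4:**
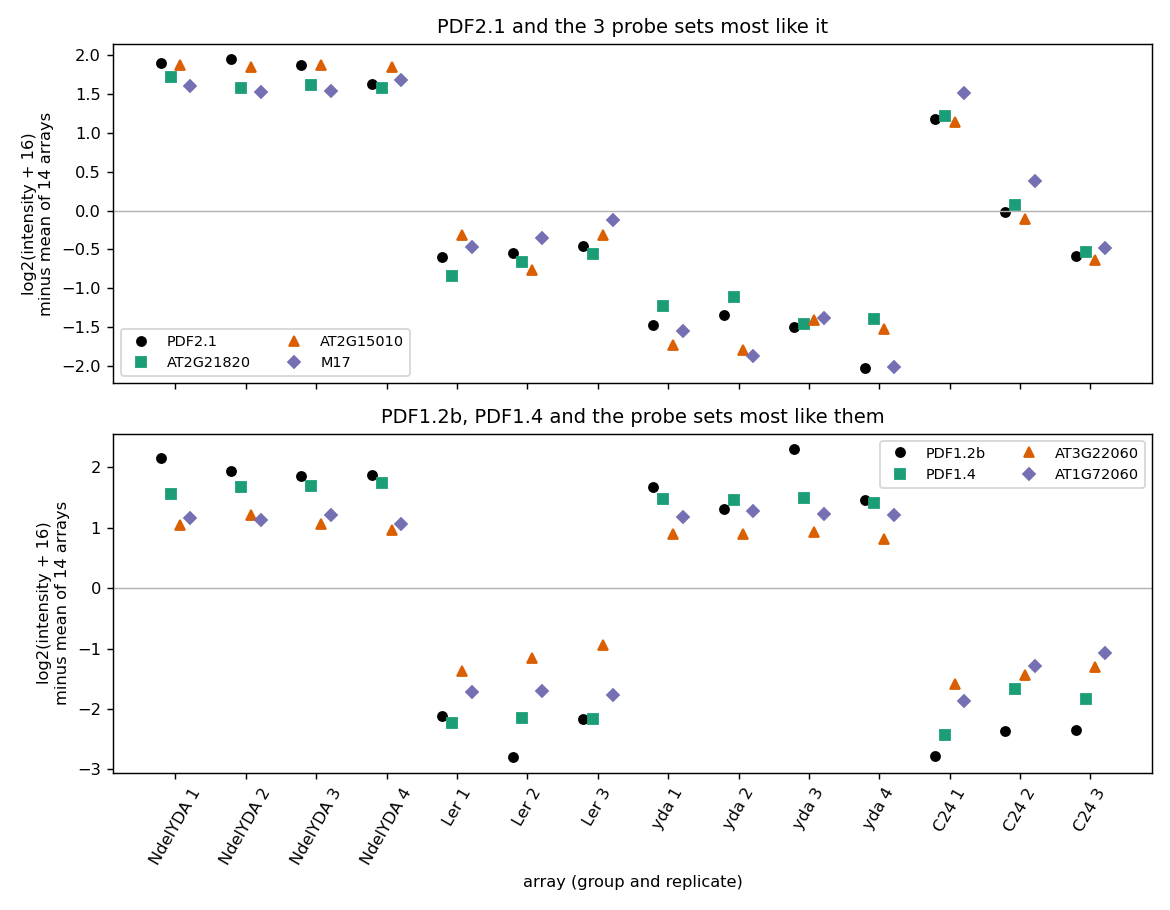
Log2(intensity + 16) minus the probe set's own mean over 14 arrays (vertical axes) by array (horizontal axis), for PDF2.1 and its 3 most similar probe sets (top) and for PDF1.2b, PDF1.4 and theirs (bottom). Each point is 1 array. The 4 probe sets of the top panel share the high NdelYDA and low yda arrays and the high C24 replicate 1, and those of the bottom panel are high in all 8 mutant arrays.

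Other genes of the defence pathways were read only in part. Of 16 listed genes of the jasmonate and ethylene defence branch 1 had a probe set of 1 gene, and ERF1 and ORA59 were not among them. That gene, EIN3, a transcription factor of the ethylene response that acts upstream of ERF1, averaged 1918 ± 108 (SD, n = 4) in NdelYDA and 1845 ± 154 (n = 3) in Ler. Its means were 1470 ± 78.9 (n = 4) for yda and 1521 ± 113 (n = 3) for C24. It was not called in either mutant (log2 change 0.06, limma adjusted p = 0.62 in NdelYDA, and -0.05, limma adjusted p = 0.647 in yda), though with the other ecotype as control it was called higher in NdelYDA (0.33, limma adjusted p = 0.00172) and lower in yda (-0.32, limma adjusted p = 0.00138). None of the 23 listed genes of jasmonate synthesis and wounding had a probe set of 1 gene. Of 5 further jasmonate and ethylene genes, taken from the probe table after it was seen, 1 rose and none fell in NdelYDA by limma (4 not called, and 0 lower at an unadjusted p under 0.05), and 1 rose and 1 fell in yda (3 not called). Over all tested probe sets 15.4% were called higher and 16.6% lower in NdelYDA, and 19.1% and 24.4% in yda, and nothing is read from counts this small over 5 genes. JRG21, a jasmonate-regulated oxygenase gene, rose in both: it was at 69.4, 102, 84.5 and 113 in NdelYDA and at 31.1, 18.6 and 26.7 in Ler, and at 359, 303, 238 and 238 in yda and at 79.2, 52.3 and 50.4 in C24. The Ler values were low signal and the NdelYDA values lay around the 30th percentile of their arrays. It passed the filter through the mutant arrays. The log2 change was 1.38 in NdelYDA (SE 0.19, limma adjusted p = 3.95e-05, and 0.000108 with no filter) and 1.97 in yda (SE 0.19, limma adjusted p = 7.06e-07, and 2.97e-06 with no filter). Against C24 in place of Ler, the NdelYDA change was 0.50 (limma adjusted p = 0.0457). MYC4, a transcription factor of the jasmonate response, fell in yda by 0.91 (SE 0.16, limma adjusted p = 0.000187), at 138 ± 13.2 (n = 4) in yda and 279 ± 73.6 (n = 3) in C24. Against Ler in place of C24 the yda change was -0.36 and not called (limma adjusted p = 0.0576). MYC4 was not called in NdelYDA (limma adjusted p = 0.905).

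Of 14 listed salicylate genes 1 had a probe set of 1 gene. SAG101, a lipase-like partner in salicylate-linked immunity, averaged 562 ± 61.0 (SD, n = 4) in yda samples and 178 ± 25.8 (n = 3) in C24 samples, a rise of 1.58 (SE 0.16, limma adjusted p = 8.62e-07). In NdelYDA it was at 159 ± 25.8 (n = 4), against 117 ± 28.8 (n = 3) in Ler, and was not called (0.41, limma adjusted p = 0.0575). It was called without NdelYDA replicate 4 or Ler replicate 3 (0.52 each, limma adjusted p of 0.0196 and 0.0401). It was also called after quantile normalization (0.47, limma adjusted p = 0.0338) and after scaling to a common median (0.44, limma adjusted p = 0.0443). Against C24 in place of Ler it was -0.15 (limma adjusted p = 0.471). The NdelYDA and yda effects had a difference of effects of -1.17 (limma adjusted p = 0.000788).

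Among 7 listed thionin and lipid transfer type peptides, other small antimicrobial proteins, 3 had a probe set of 1 gene and 2 passed the filter. One rose and 1 fell in NdelYDA (15.4% of all tested probe sets were called higher and 16.6% lower there), and both fell in yda (24.4% called lower). The thionin gene THI2.2 fell in both mutants, by 0.46 in NdelYDA (limma adjusted p = 0.00356) and by 0.76 in yda (limma adjusted p = 3.64e-05). It averaged 440 ± 71.4 (SD, n = 4) in NdelYDA and 609 ± 61.9 (n = 3) in Ler, and 5143 ± 511 (n = 4) in yda and 8671 ± 372 (n = 3) in C24. The thionin gene AT1G66100 fell in yda by 2.09 (limma adjusted p = 1.62e-10), at 1793 ± 153 (SD, n = 4) in yda samples and 7692 ± 646 (n = 3) in C24 samples, and rose in NdelYDA by 0.57 (limma adjusted p = 0.000229), where both groups were low signal, at 56.1 ± 7.02 in NdelYDA and 32.5 ± 2.99 in Ler. Both thionin genes were far lower in Ler than in C24, by 3.80 and 7.31 on the log2 scale. Against the other ecotype their yda changes were positive (3.05 for THI2.2 and 5.22 for AT1G66100). The changes of PDF1.2b, PDF1.4 and PDF2.1 kept their direction against either control. These defensins were chosen because they differed between mutants and controls, so nothing is read from that contrast.

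Seedling tissue was checked with marker genes. LHCB4.1, a light-harvesting protein of green tissue and the only one of 7 listed with a probe set, was among the brightest probe sets in every array (10135 to 12980). The 4 root markers with a probe set, of 9 listed, had a summed intensity of 1501 to 1774 in NdelYDA, against 3722 to 4403 in Ler, and of 3065 to 3331 in yda, against 4955 to 5894 in C24. All 4 fell in NdelYDA, where 16.6% of all tested probe sets were called lower. In yda 2 of 4 fell, AT5G17820 (-0.52) and AT3G01190 (-1.44), where 24.4% were called lower, and EXPA7 and GH9C1 were at 0.35 each and not called, with a list median of -0.09. With the other control, EXPA7 in NdelYDA (limma adjusted p = 0.0602) and AT5G17820 in yda (-0.05, limma adjusted p = 0.656) were not called. GH9C1 in yda was then called higher (0.72, limma adjusted p = 0.00474). The 2 guard cell markers with a probe set, FAMA (FMA) and AT1G22690, of 8 listed, summed to 360 to 478 in NdelYDA, against 2769 to 2944 in Ler, and to 4952 to 5449 in yda, against 1502 to 2946 in C24, with the lowest C24 sum in replicate 1. Fewer cells of a type and less RNA per cell cannot be told apart in seedling RNA. In NdelYDA the root markers and PDF2.3 were lower, and PDF1.2b and PDF1.4 higher. In yda PDF2.3 was also lower and PDF1.2b and PDF1.4 also higher. There the root sum was lower too, though the 4 root markers were split. The direction of the guard cell sum was opposite to that of PDF2.1 in both mutants. The part of tissue composition in the defensin values was not tested. None of the 3 listed floral genes had a probe set of 1 gene.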

How the data were processed

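The deposited table holds probe set intensities on a linear scale. Their mean, trimmed by 2% at either end, was 500 on every array, which the values show and no label states, and the software that the authors used is not given in the sources used here. Of 22810 probe sets, 64 controls were left out, 13513 had 1 gene in the probe table, and 13436 of these matched the TAIR10.1 gene table, used for names and gene order only. Values were tested as log2(intensity + 16). A probe set was kept if 3 or more of the 14 arrays had it above their own 30th percentile (17210). One model with 4 group means was fitted with limma 3.58.1 in R 4.3.3, with an intensity trend, two-sided, with Benjamini-Hochberg adjustment over all 17210, and calls were made at 0.05. The fit was run on simulated data with independent noise and few changed probe sets. These data differ from that, so the run checks the fit and not the calls made here. The number of arrays limits the precision.

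The 3 genes and all lists were chosen with earlier results of these data known, and the lists were written from memory of published loci. The checks of the samples were 5 marker lists and the GAPDH ratio. Named genes were the 3 genes, every other plant defensin with a probe set, the 3 probe sets most correlated with each of the 3 genes, and up to 3 called members per list and mutant comparison by the smallest p. Alternatives were pseudocounts of 1 and 64, no filter, quantile and median scaling, no trend, only the groups compared, a replicate block, the other control and each array left out.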

Additional observations from a re-analysis of the deposited data

Results flagged for a closer look

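Effects that differed between the mutants were flagged for 8 named genes. Over all 17210 tested probe sets 33.4% were called for this difference, 17.6% higher and 15.8% lower. Most of the flagged genes were named for their mutant changes or for likeness to PDF2.1, so nothing is read from the count. The difference, NdelYDA minus Ler less yda minus C24, was 4.15 for PDF2.1, 3.86 for AT2G21820, 4.07 for AT2G15010 and 4.08 for M17 on the log2 scale. Every NdelYDA array of these 4 was above every Ler array, and every yda array was below every C24 array. Over all tested probe sets the arrays were apart in that direction in 21.1% for NdelYDA and in 23.2% for yda. The share apart in both comparisons at once is not given. These differences were not tested, since PDF2.1 was chosen for its changes and the other 3 for their likeness to it. The difference was called by limma for PDF1.1 (2.40, adjusted p = 8.85e-06, and 3.08e-05 with no filter, as it passed the filter through the NdelYDA arrays), for the thionin gene AT1G66100 (2.66, adjusted p = 1.95e-09), for MYC4 (0.94, adjusted p = 0.0034) and for SAG101 (-1.17, adjusted p = 0.000788).

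PDF1.2 in NdelYDA replicate 1, at 394.9, lay far from the other 3 arrays of that group (315 to 328) by Dixon's test. It was the only such value among 36 groups of 4 arrays examined, and chance alone gives about 1 in 20.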

How the results depend on the processing

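Under the other settings the mutant changes of the 3 genes kept their direction. With a pseudocount of 64 they were 3.70 for PDF1.2b, 3.28 for PDF1.4 and 2.14 for PDF2.1 in NdelYDA. In yda they were 3.53, 2.93 and -1.42 in the same order. With a pseudocount of 1, PDF1.4 in NdelYDA was 4.11, and against C24 in place of Ler it was 3.65 for PDF1.4 and 1.64 for PDF2.1. With each array left out in turn, the NdelYDA changes were 4.1 to 4.44 for PDF1.2b, 3.83 to 3.89 for PDF1.4 and 2.34 to 2.44 for PDF2.1, and the yda changes 3.98 to 4.31, 3.21 to 3.6 and -2.17 to -1.29. In Ler against C24 these ranges were -0.01 to 0.35, -0.43 to -0.04 and -1.11 to -0.24, and PDF2.1 was called after quantile normalization (-0.79). Against C24 in place of Ler, 4221 probe sets were called higher in NdelYDA in place of 2646, and 2 other defensins lower in place of 1. In yda the other defensins called lower numbered 1 to 3 over the arrays left out (1 without yda replicate 3 or C24 replicate 2). For the difference of effects, 1 to 2 other defensins were called higher over the arrays left out, 2 after quantile normalization, and 1 was called lower with no filter. Directions of values called under at least 1 control turned against C24 in place of Ler for PDF2.2 (-0.22), AT1G66100 (-6.74), MYC4 (-0.52) and ORA47 (-0.96) in NdelYDA, and against Ler in place of C24 for PDF2.2 (0.11), THI2.2 (3.05), AT1G66100 (5.22) and ORA47 (0.76) in yda. SAG101 in NdelYDA (-0.15) and PDF1.1 in yda (0.18) also changed sign, without a call under either control. The cause was not tested.

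Deviations from the group means were correlated between same-numbered arrays of NdelYDA and Ler, yda and C24, and Ler and C24 (r of -0.156 to 0.16). Differently numbered arrays were not compared, so these values cannot decide whether the numbers pair the samples. With the replicate block PDF1.2b, PDF1.4 and PDF2.1 changed by 4.37, 3.85 and 2.48 in NdelYDA and by 4.24, 3.43 and -1.67 in yda, 2473 and 2637 probe sets were called higher and lower in NdelYDA, and PDF2.2 in yda was not called (adjusted p = 0.0503 by limma).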
